A study of Rattus norvegicus with 12 samples.

Results

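The muscarinic acetylcholine receptors are the 5 genes Chrm1, Chrm2, Chrm3, Chrm4 and Chrm5, and they are described here in the dorsal striatum of rats with a dopamine lesion. They were found as the non-control probes whose gene name in the scanner files is one of the 5 names. All 5 genes were found, out of 35623 gene names on the array, with 7 of its 41012 probes. Each such name counts as 1 gene here. Chrm1 and Chrm4 each had a pair of probes and the other 3 genes had 1 probe each.

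Striatal RNA from 12 male rats was hybridised to single-colour Agilent arrays, 1 array per rat, in 4 groups of 3. Every rat carried a unilateral lesion of the left substantia nigra made with 9 µg of 6-OHDA, a toxin of dopamine neurons. The 6-OHDA group had this lesion alone. The HFS group also received high-frequency stimulation of the subthalamic nucleus on the lesioned side over 5 days (130 Hz, 60 µA, 80 µs per pulse). The DOPA group received L-DOPA, the precursor of dopamine, at 25 mg/kg with the decarboxylase inhibitor benserazide at 12.5 mg/kg, in 2 injections per day at an interval of 12 h for 19 days. The DOPA/HFS group received both treatments. All 4 groups therefore share the lesion, and no array of an unlesioned rat is used here. The stimulated rats carried an electrode, so that the effects of the implant and of the current cannot be told apart.

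Muscarinic receptors are G protein-coupled receptors for acetylcholine, which the striatum receives mainly from its own cholinergic interneurons. The receptors encoded by Chrm1, Chrm3 and Chrm5 couple to Gq proteins and phospholipase C, which releases calcium from internal stores and closes the potassium channels of the M current. Those encoded by Chrm2 and Chrm4 couple to Gi and Go proteins, which inhibit adenylyl cyclase and open inwardly rectifying potassium channels. In the striatum, the Chrm1 receptor is found on projection neurons of both output pathways, the Chrm4 receptor is enriched on those of the direct pathway, and the Chrm2 receptor is an autoreceptor of the cholinergic interneurons. The questions were whether stimulation, L-DOPA or both moved the receptor transcripts, and whether stimulation acted differently with L-DOPA.

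Signals are given as log2 of the background-corrected spot intensity after quantile normalization between arrays. To be tested, a probe needed a well-above-background flag on a fraction of 0.4 or more of all arrays. Between 50.5% and 63.2% of the spots of an array were well above background, and the number of arrays limits the precision. Outlier spots, of which the scanner flagged 4175 on the array of DOPA/HFS replicate 3 and only 2 to 25 per array elsewhere, were not used. The replicate number may mark the slide and is called the slide here. Each of the 3 numbers holds 1 array of each group. The positions of the groups on the slides were not tested, so group and position cannot be told apart. The signal of one probe cannot be set against that of another, so levels are compared only within a probe.

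Chrm1, Chrm3 and Chrm4 passed the filter, and Chrm2 and Chrm5 did not. None of the 3 tested receptors was called in any of the 6 comparisons, which needed an adjusted p under 0.1 in limma with a fold over 1.2 or under 0.8. Their adjusted p-values ranged from 0.998 to 1. These counts stand against a background of almost no calls over the 20405 genes tested. The share of genes called was 0% in HFS against 6-OHDA, 0.0049% in DOPA against 6-OHDA and 0% in DOPA/HFS against 6-OHDA. It was 0% in DOPA/HFS against DOPA, 0% in DOPA/HFS against HFS and 0% for the interaction. Signals and intervals are therefore given as a description, with no receptor called higher or lower by this test.

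**Figure D1:**
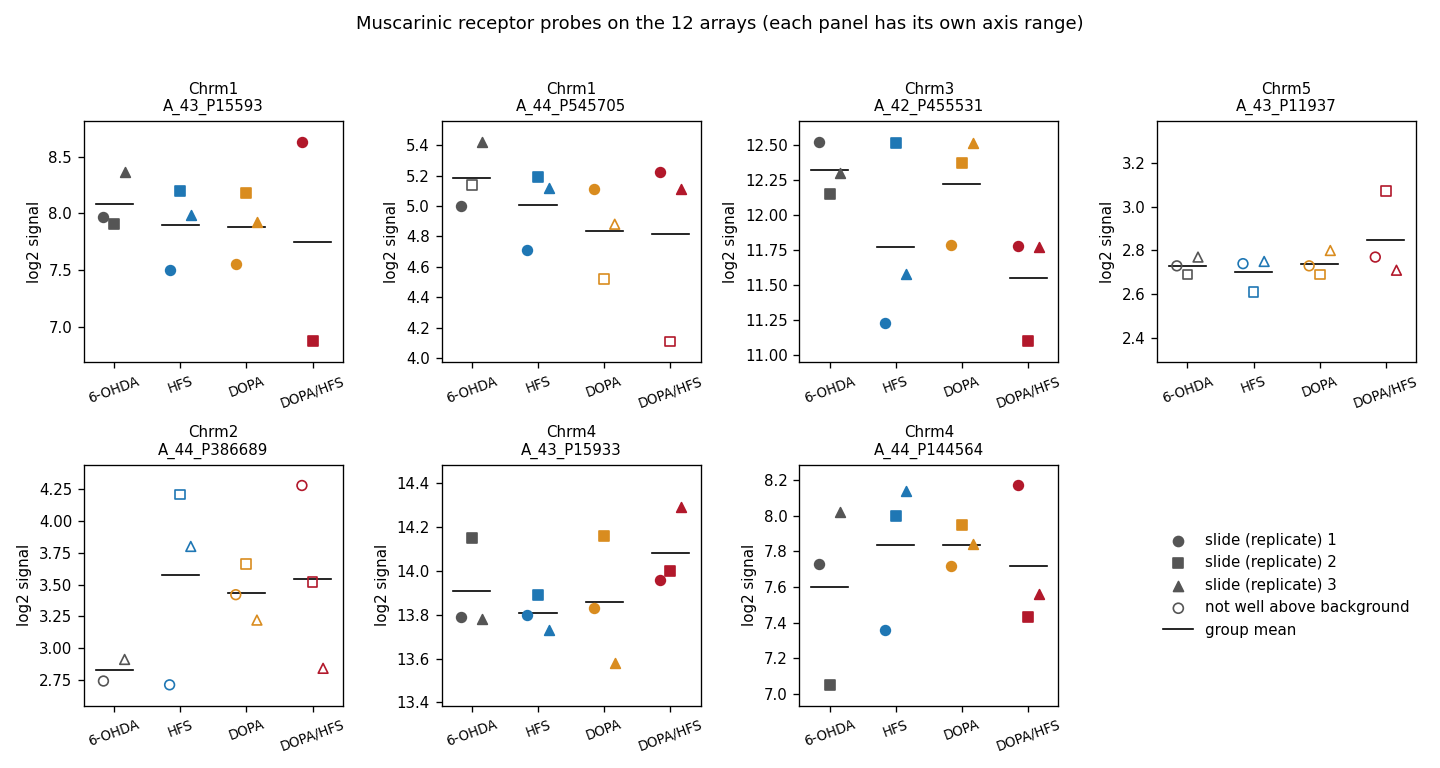
Log2 signal (vertical axis) of each muscarinic receptor probe on the 12 arrays by group (horizontal axis), with 1 panel per probe. Marker shapes show the 3 slides (replicate numbers), open markers spots not well above background, and bars group means. The first Chrm1 probe lacks DOPA/HFS replicate 3 and the Chrm2 probe lacks 6-OHDA replicate 2, where the spots were outliers. The 3 DOPA/HFS arrays of Chrm3 lie between 11.10 and 11.78, below the 3 arrays of 6-OHDA.

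Among the Gq-coupled receptors, Chrm3 had a lower signal on each DOPA/HFS array than on any 6-OHDA array, but the difference did not pass the adjusted test. The Chrm3 receptor is best known from glands and smooth muscle and is also present in forebrain neurons. Its probe, A_42_P455531 (NM_012527), was well above background on all 12 arrays. The log2 signal was 12.52, 12.15 and 12.30 in 6-OHDA, a mean of 12.32 ± 0.19 (SD, n = 3). It was 11.78, 11.10 and 11.77 in DOPA/HFS, a mean of 11.55 ± 0.39 (SD, n = 3). The highest DOPA/HFS array lay below the lowest 6-OHDA array, so these groups did not overlap. The difference was -0.77 on the log2 scale (SE 0.32), a fold of 0.585 with a 95% interval of 0.357 to 0.959. The unadjusted p in limma was 0.0361 and the adjusted p was 1. The exact two-sided permutation test gave p = 0.1, the smallest that 3 arrays against 3 allow.

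Chrm3 was the single member of the 3 tested with an unadjusted p under 0.05 in DOPA/HFS against 6-OHDA, where 2.75% of all tested genes had one. Of the 2 members with a value on every array, 1 had groups that did not overlap, against 4.18% of all genes. A change at least as large in either direction was seen in 669 genes, or 3.28% of those tested. Chrm3 is named in the study's own gene lists from these same arrays, so this comparison is not independent evidence for those lists. Because these groups did not overlap, the sign of the difference within each slide was fixed in advance. The differences were -0.74 on slide 1, -1.05 on slide 2 and -0.53 on slide 3. The slide as a block could not move the estimate of -0.77, since each slide held every group (adjusted p 0.982 in limma). Leaving out each array in turn gave -0.89 to -0.55, the latter without DOPA/HFS replicate 2.

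The DOPA group had Chrm3 signals of 11.79, 12.37 and 12.51, a mean of 12.22 ± 0.38 (SD, n = 3). They overlapped with those of the 6-OHDA group, and the difference from it was -0.10 (SE 0.32, unadjusted p 0.764 in limma). The difference of DOPA/HFS from DOPA was -0.67 (SE 0.32), a fold of 0.627 with a 95% interval of 0.382 to 1.03. These groups did not overlap either, but the gap between the lowest DOPA array at 11.79 and the highest DOPA/HFS array at 11.78 was within rounding. The unadjusted p in limma was 0.0619, the adjusted p was 1 and the exact permutation p was 0.1. Here 1 of 2 members with all values did not overlap, against 9.41% of all genes. Within slides the difference was -0.01 on slide 1, -1.27 on slide 2 and -0.74 on slide 3.

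The HFS group was the most spread for Chrm3. Its signals were 11.23, 12.51 and 11.58, a mean of 11.77 ± 0.66 (SD, n = 3), so that replicate 2 was close to the highest arrays of 6-OHDA and DOPA. The difference from 6-OHDA was -0.55 (SE 0.32), a fold of 0.684 with a 95% interval of 0.417 to 1.12, and the unadjusted p in limma was 0.119. It was -1.29 on slide 1, 0.36 on slide 2 and -0.71 on slide 3, and leaving out HFS replicate 1 or replicate 2 moved it to -0.27 or -0.92. DOPA/HFS differed from HFS by -0.23 (SE 0.32, unadjusted p 0.501), or by 0.14 without HFS replicate 2. The interaction, which asks whether the stimulation effect differed with L-DOPA, was -0.13 (SE 0.46, 95% interval -1.14 to 0.88). In the order of the means, 6-OHDA, DOPA, HFS and DOPA/HFS, the ranges of neighbouring groups overlapped at each step.

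Markers of the choroid plexus, the tissue that makes cerebrospinal fluid, differed among the same HFS arrays. The summed signal of 6 of 7 listed markers was 88800 on HFS replicate 1, 4250 on replicate 2 and 44500 on replicate 3. It was 230 to 365 in 6-OHDA, 217 to 16400 in DOPA and 259 to 896 in DOPA/HFS. Within HFS, the array with the highest sum had the lowest Chrm3 signal and the array with the lowest sum had the highest. In DOPA, replicate 3 had both the highest sum and the highest Chrm3 signal. The part of these markers in the Chrm3 signal was not tested. Cortical markers, of which 2 of 5 were summed, were between 404 and 1580 on all arrays. In bulk tissue, fewer cells of a type and less RNA per cell cannot be told apart.

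**Figure D2:**
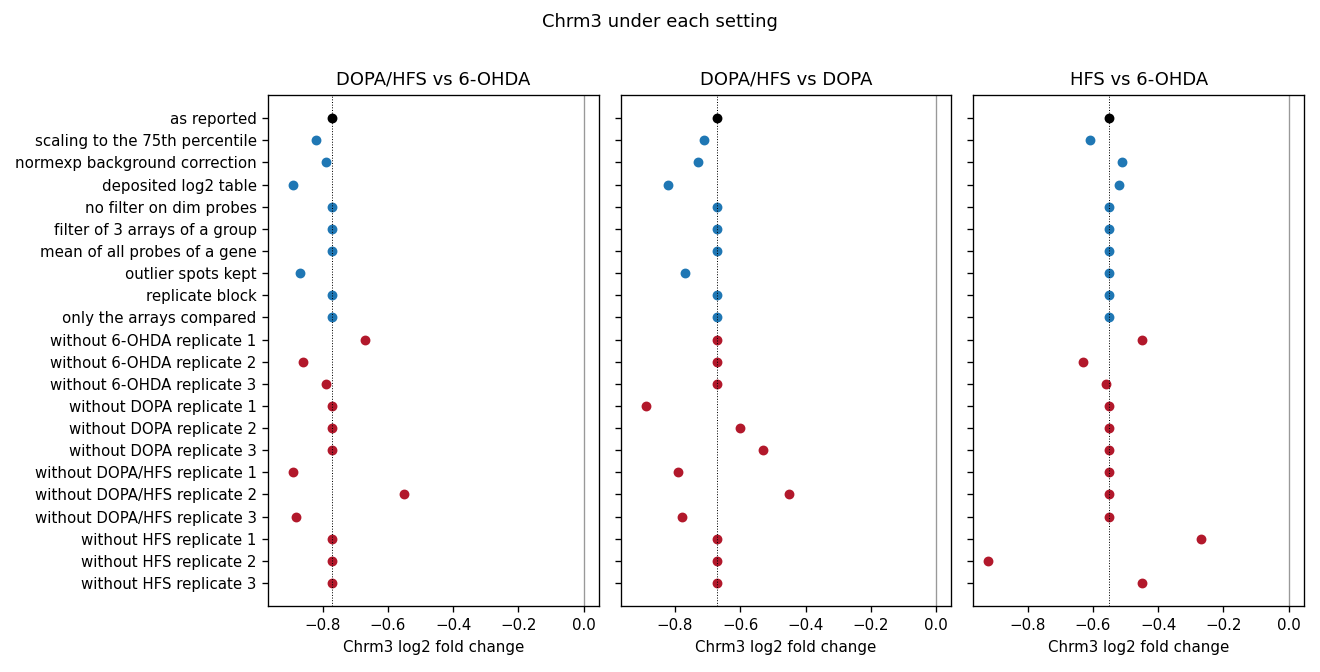
Log2 fold change of Chrm3 (horizontal axis) in 3 comparisons under each processing setting (vertical axis), as reported in black, with other settings in blue and single arrays left out in red. All values lie below 0, between -0.89 and -0.55 for DOPA/HFS against 6-OHDA, -0.89 and -0.45 for DOPA/HFS against DOPA, and -0.92 and -0.27 for HFS against 6-OHDA. Settings that could not move a value, such as an array of another group left out, repeat the reported one.

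Chrm1 encodes the Gq-coupled receptor of striatal and cortical projection neurons. Its brighter probe, A_43_P15593 (NM_080773), was well above background on 11 of the 12 arrays. The log2 signal was 7.97, 7.91 and 8.37 in 6-OHDA (mean 8.08 ± 0.25, SD, n = 3). It was 7.50, 8.20 and 7.99 in HFS (mean 7.90 ± 0.36, SD, n = 3), and 7.55, 8.18 and 7.92 in DOPA (mean 7.88 ± 0.32, SD, n = 3). These groups overlapped throughout, with differences from 6-OHDA of -0.19 for HFS and -0.20 for DOPA (SE 0.39 each). In DOPA/HFS the signal was 8.63 on replicate 1, the highest of all arrays, and 6.87 on replicate 2, the lowest of all arrays.

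The spot of this Chrm1 probe on DOPA/HFS replicate 3 was an outlier, with an intensity of 3433 against 122.8 to 471.4 on the other arrays, and it was left out. DOPA/HFS therefore rests on 2 arrays for Chrm1, and the fit gave -0.33 against 6-OHDA (SE 0.44, 95% interval -1.31 to 0.65). With outlier spots kept it was 0.83, so no direction is given. The same holds for DOPA/HFS against DOPA, at -0.13 without and 1.03 with outlier spots, and against HFS, at -0.15 and 1.01. The interaction for Chrm1 was 0.06 (SE 0.59, 95% interval -1.26 to 1.37).

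The second Chrm1 probe, A_44_P545705 (AJ006522), was dim and was well above background on 8 of 12 arrays, including DOPA/HFS replicate 3. Its DOPA/HFS signals were 5.22, 4.11 and 5.11, against 5.00, 5.14 and 5.42 in 6-OHDA. The difference was -0.37 (SE 0.29, 95% interval -1 to 0.26, unadjusted p 0.217 in a limma fit of every probe). It was -0.18 for HFS and -0.35 for DOPA (SE 0.29 each). On both probes DOPA/HFS replicate 2 was the lowest array.

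A further probe, A_44_P146448, carries the accession M16406 as its gene name and is described in the files as the rat m1 receptor gene. It falls outside the rule by its name and was followed separately. It was well above background on all 12 arrays, with 13.58, 13.69 and 13.31 in 6-OHDA, 13.14, 13.44 and 13.12 in HFS, 13.13, 13.59 and 13.20 in DOPA, and 13.30, 13.15 and 13.74 in DOPA/HFS. Each treated group overlapped with 6-OHDA. The differences were -0.29 for HFS, -0.22 for DOPA and -0.13 for DOPA/HFS (SE 0.20 each), with a 95% interval of -0.57 to 0.30 for the last. On DOPA/HFS replicate 3, where the first probe had the outlier spot, this probe had its highest signal.

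Chrm5, the third Gq-coupled member, encodes the receptor known from midbrain dopamine neurons. Its probe, A_43_P11937 (NM_017362), was not well above background on any of the 12 arrays. Its log2 signals lay between 2.61 and 3.07 and its intensities between 4.63 and 12.64. The lowest signals called well above background on the arrays lay between 4.03 and 5.71, so a change of Chrm5 was not detectable here and no fold is given.

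Among the Gi-coupled receptors, Chrm2 was likewise not well above background on any array. Its probe, A_44_P386689 (NM_031016), had log2 signals of 2.71 to 4.28 on 11 arrays. The spot on 6-OHDA replicate 2 was an outlier with an intensity of 63330, against 4.806 to 24.98 on the other arrays, and it was left out. The interneurons that carry this receptor are a small share of striatal cells. Transcripts of the same interneurons were measured: the summed signal of 5 of 9 listed markers was 13100 to 13700 in 6-OHDA, 9430 to 13100 in HFS, 10600 to 15800 in DOPA and 11600 to 13800 in DOPA/HFS.

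Chrm4 encodes the receptor through which acetylcholine opposes dopamine at direct-pathway neurons. Its brighter probe, A_43_P15933 (XM_345403), was well above background on all 12 arrays. The log2 signal was 13.79, 14.15 and 13.78 in 6-OHDA (mean 13.91 ± 0.21, SD, n = 3). It was 13.80, 13.89 and 13.73 in HFS (mean 13.81 ± 0.08, SD, n = 3), and 13.83, 14.16 and 13.58 in DOPA (mean 13.86 ± 0.29, SD, n = 3). In DOPA/HFS it was 13.96, 14.00 and 14.29 (mean 14.08 ± 0.18, SD, n = 3). Each treated group overlapped with 6-OHDA.

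The Chrm4 differences from 6-OHDA were -0.10 for HFS, -0.05 for DOPA and 0.17 for DOPA/HFS (SE 0.18 each). The 95% intervals in fold were 0.709 to 1.23 for HFS, 0.735 to 1.27 for DOPA and 0.858 to 1.48 for DOPA/HFS. DOPA/HFS differed from DOPA by 0.22 (SE 0.18), or by 0.09 without DOPA replicate 3. DOPA/HFS lay above HFS without overlap, by 0.28 (SE 0.18, 95% interval -0.12 to 0.67), with an unadjusted p of 0.153 in limma and an exact permutation p of 0.1. In that comparison 1 of 2 members with all values did not overlap, against 6.36% of all genes. Within slides this difference was 0.16, 0.11 and 0.56. The interaction was 0.32 (SE 0.25, 95% interval -0.23 to 0.88).

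The second Chrm4 probe, A_44_P144564, carries the same accession and was also well above background on all 12 arrays. The 6-OHDA arrays had a mean of 7.60 ± 0.50, the HFS arrays 7.83 ± 0.42, the DOPA arrays 7.84 ± 0.12 and the DOPA/HFS arrays 7.72 ± 0.40 (SD, n = 3 each). It gave DOPA/HFS against HFS as -0.11 and against DOPA as -0.12 (SE 0.29 each), opposite in sign to the brighter probe. The interaction was -0.35 (SE 0.41) on this probe. It gave HFS and DOPA each 0.23 above 6-OHDA (SE 0.29 each), also opposite in sign, so no direction is given for Chrm4 in these comparisons.

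The neurons of the direct pathway are marked by Drd1, Tac1 and Pdyn, the dopamine D1 receptor and the precursors of substance P and dynorphin. The summed signal of these 3 genes was 97100 to 108000 in DOPA, above the 50700 to 63300 of 6-OHDA on every array. Gene by gene, the log2 difference of DOPA from 6-OHDA was 1.39 for Pdyn (SE 0.28, adjusted p 0.879 in limma), 0.08 for Drd1 (SE 0.21) and 0.15 for Tac1 (SE 0.17), so the higher sum does not describe the 3 markers alike. It was 55700 to 68400 in HFS and 62400 to 94900 in DOPA/HFS. For the indirect pathway the sum of 4 markers was 124000 to 171000 in 6-OHDA and 140000 to 170000 in DOPA.

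**Figure D3:**
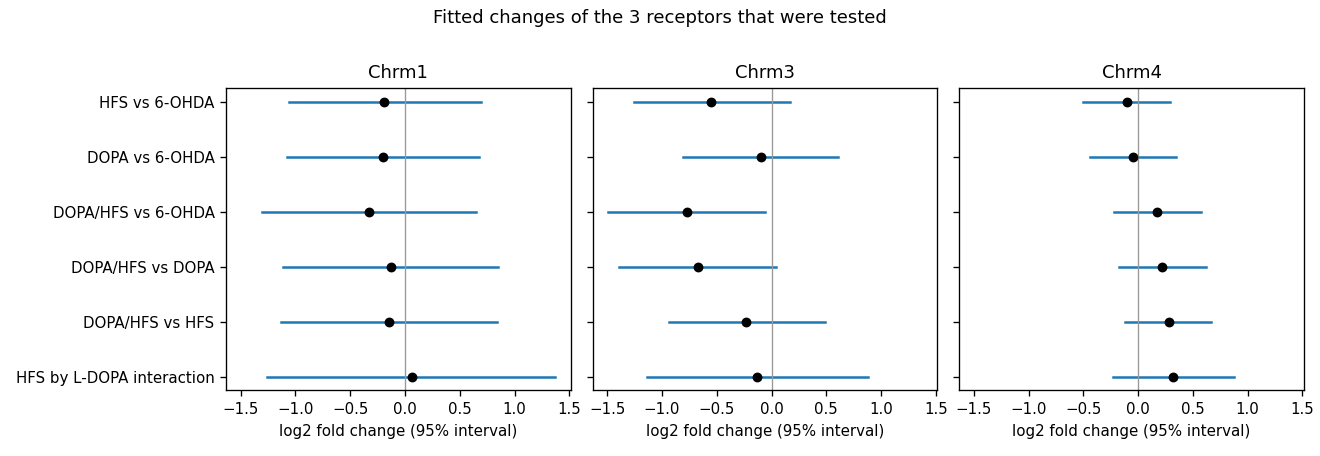
Log2 fold change (horizontal axis) of Chrm1, Chrm3 and Chrm4 in the 5 pairwise comparisons and the interaction (vertical axis), with points for the limma estimates and lines for 95% intervals. The interval of Chrm3 in DOPA/HFS against 6-OHDA, -1.49 to -0.06, is the single one that does not reach 0.

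In HFS against 6-OHDA, 0 of the 3 tested members had groups that did not overlap, against 5.13% of all genes, and 0 had an unadjusted p under 0.05, against 2.34%. In DOPA against 6-OHDA these counts were also 0 of 3, against 6.27% and 2.59%. The spread between arrays of a group differed among the probes that stood for the receptors. The within-group SD was 0.55 for Chrm1, larger than that of 87.3% of tested genes, 0.44 for Chrm3, larger than 78.7%, and 0.21 for Chrm4, larger than 28.9%. The median over all tested genes was 0.27. For Chrm1 the SD was 1.24 over the 2 arrays of DOPA/HFS, against 0.25 in 6-OHDA, 0.36 in HFS and 0.32 in DOPA. Across arrays, the signals of Chrm1 and Chrm3 had a Pearson r of 0.627 (rho 0.436, 11 arrays), Chrm3 and Chrm4 one of -0.127 (rho -0.21, 12 arrays), and Chrm1 and Chrm4 one of -0.001 (rho -0.064, 11 arrays). DOPA/HFS replicate 2 was the lowest array for Chrm3 and for the Chrm1 probe used here. On the m1 probe A_44_P146448 it was not, at 13.15 against 13.12 on HFS replicate 3. The arrays share treatments and may share slides, and the values are given as a description.

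The genes with signals most like those of each receptor were listed over the same arrays. For Chrm3 they were Fgfr1op2 (r = 0.873), RGD1307278_predicted (r = 0.834) and Xpr1_predicted (r = 0.825) over 12 arrays. For Chrm4 they were RGD1565911_predicted (r = 0.949), AA926021 (r = 0.938) and Gdf6 (r = 0.937) over 12 arrays. For Chrm1 they were Kcnj4 (r = 0.942), RGD1307391_predicted (r = 0.936) and ENSRNOT00000025476 (r = 0.932) over 11 arrays. Each is the top of 20405 tested genes, and the arrays share treatments and may share slides. The study also lists Fgfr1op2, as it does Chrm3, for DOPA/HFS from these same arrays.

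The other genes of the pathway were taken from 5 lists with 38 genes, 33 of which were tested. None was called by limma in any of the 6 comparisons. At an unadjusted p under 0.05 HFS had 0 of these genes, DOPA had 1 and DOPA/HFS had 1, each against 6-OHDA, where the shares of all tested genes were 2.34%, 2.59% and 2.75%. A count of 1 among 33 is near these shares. The median log2 change over the 33 genes was -0.03 for HFS, 0.04 for DOPA and 0 for DOPA/HFS, each against 6-OHDA, beside 0.01, -0.01 and -0.01 over all genes.

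Downstream of the Gq-coupled receptors, 9 of 10 listed G protein, phospholipase C and calcium release genes were tested and 0 were called. Their medians were 0.09, 0.04 and 0.03 in HFS, DOPA and DOPA/HFS. In HFS the widest values were Gna14, a Gq-family subunit, at 0.40 (SE 0.34) and Plcb1, the phospholipase C of forebrain neurons, at -0.27 (SE 0.17). In DOPA they were Itpr3, a calcium release channel, at 0.38 (SE 0.21, n = 2 in DOPA) and Plcb4 at 0.23 (SE 0.13). In DOPA/HFS they were Gna11, a Gq-family subunit, at -0.47 (SE 0.26, n = 2 in DOPA/HFS) and Itpr3 at 0.31 (SE 0.21, n = 2 in DOPA/HFS). The intervals of all of these included 0.

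Downstream of the Gi-coupled receptors, 5 of 5 listed G protein subunits were tested and 0 were called, with medians of -0.14, -0.07 and -0.21 in HFS, DOPA and DOPA/HFS. Gnaz was at -0.28 in HFS and -0.21 in DOPA (SE 0.21 each), and Gnao1, the abundant Go subunit of brain, was at 0.25 in HFS and 0.24 in DOPA/HFS (SE 0.39 each). Gnai2 was at -0.15 in DOPA and -0.26 in DOPA/HFS (SE 0.18 each).

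Of the potassium channels under muscarinic control, 7 of 7 were tested and 0 were called. Kcnq3, a subunit of the M-current channel that muscarinic receptors close, had log2 signals of 9.98, 10.63 and 9.75 in DOPA/HFS. They were 9.04, 9.55 and 9.01 in 6-OHDA, 9.52, 9.42 and 9.1 in DOPA, and 9.19, 9.15 and 9.07 in HFS. Every DOPA/HFS array was above all arrays of the other groups. The difference from 6-OHDA was 0.92 (SE 0.23), a fold of 1.89, with an unadjusted p of 0.00235 and an adjusted p of 1 in limma. Kcnq3 was the single gene of the 33 with an unadjusted p under 0.05 in that comparison, where 2.75% of all tested genes had one and 4.18% had groups that did not overlap. The share without overlap was 9.41% for DOPA/HFS against DOPA and 6.36% against HFS. Kcnq5 was at 0.38 in DOPA/HFS (SE 0.39). Of the inward rectifiers, Kcnj3 was at 0.17 in HFS and 0.28 in DOPA (SE 0.28 each) and Kcnj6 was at -0.17 in DOPA (SE 0.56).

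Of the kinases, arrestins and RGS proteins that end receptor signalling, 9 of 10 were tested and 0 were called. Rgs4, which speeds the return of G proteins to rest and reduces muscarinic autoreceptor signalling in cholinergic interneurons, had log2 signals of 15.37, 15.53 and 15.24 in DOPA and of 15.06, 14.92 and 15.04 in 6-OHDA. The groups did not overlap, and the difference was 0.37 (SE 0.14), a fold of 1.30, with an unadjusted p of 0.0227 and an adjusted p of 1 in limma. Rgs4 was the single gene of the 33 with an unadjusted p under 0.05 in DOPA, where 2.59% of all tested genes had one and 6.27% had groups that did not overlap. The study also names Rgs4 for L-DOPA from these same arrays, so this comparison is not independent evidence. Arrb1, an arrestin, was at 0.17 in HFS and 0.24 in DOPA/HFS (SE 0.28 each). Its DOPA/HFS signals were 6.80, 6.61 and 7.91, against 6.70, 6.95 and 6.95 in 6-OHDA. The HFS and 6-OHDA arrays of Arrb1 did not overlap either (unadjusted p 0.546 in limma), as in 5.13% of all genes. The gap was small, from 6.95 on the highest 6-OHDA arrays to 6.97 on the lowest HFS array. Grk5, a receptor kinase, was at 0.23 in DOPA (SE 0.26) and 0.25 in DOPA/HFS (SE 0.29, n = 2 in DOPA/HFS), and Rgs2 was at 0.13 in HFS (SE 0.20).

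Of 6 genes of acetylcholine synthesis, transport and breakdown, 3 were tested and 0 were called. Slc18a3, the vesicular acetylcholine transporter, was at -0.22 for HFS, -0.09 for DOPA and -0.19 for DOPA/HFS (SE 0.21 each). Slc5a7, the choline transporter, was at -0.07 in HFS and -0.21 in DOPA (SE 0.15 each). Ache, the esterase that removes acetylcholine, was at 0.12 in DOPA/HFS (SE 0.17). The 95% intervals of all these differences included 0.

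**Figure D4:**
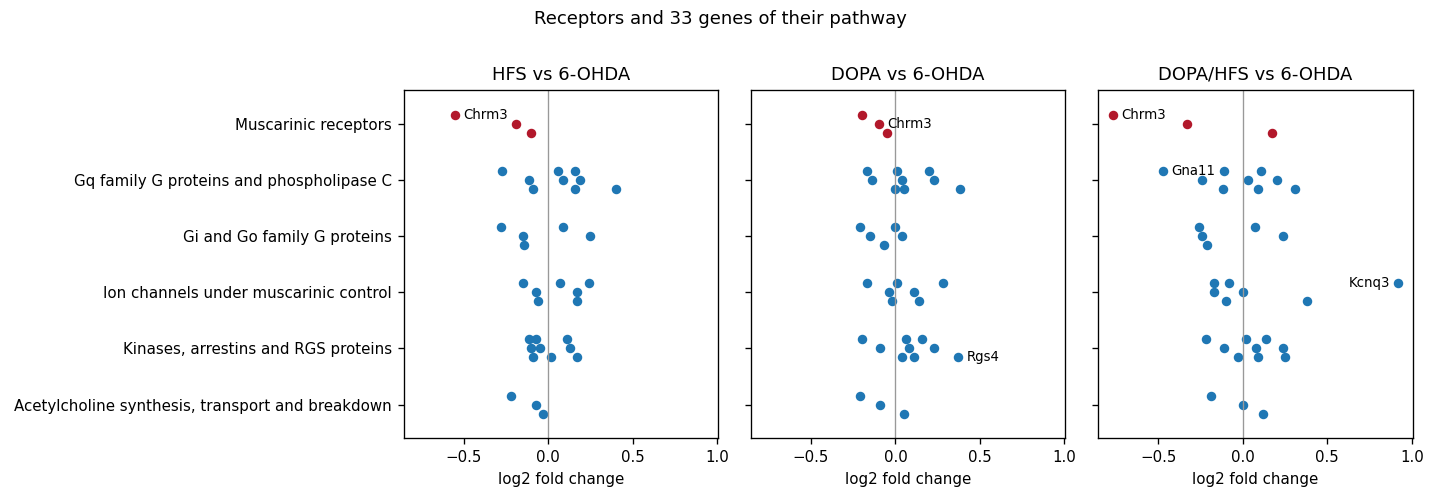
Log2 fold change (horizontal axis) of the 3 tested receptors in red and of 33 pathway genes in blue, by list (vertical axis), in each treated group against 6-OHDA. Chrm3 lies at -0.77 and Kcnq3 at 0.92 in DOPA/HFS, and Rgs4 at 0.37 in DOPA, and no gene shown was called.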

How the data were processed

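The samples were grouped by their labels, with 1 array per rat. The authors deposited 1 scanner file per array with spot intensity values, made with Agilent Feature Extraction 9.1 as listed in the submitters' processing notes, on a linear scale with local background subtracted and no normalization between arrays. The authors also deposited quantile normalized log2 values in a series table, whose ranks follow those of the background-subtracted intensity (lowest Spearman correlation 0.9981). That table was used as an alternative.

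Of 45018 spots per array, 1639 controls and all outlier spots were removed. Log2 intensities were quantile normalized and averaged over the spots of a probe. Of 41012 probes, 10735 were named through RefSeq accessions in a GRCr8 gene table (names only, no positions), and the others kept the name in the files. Probes flagged well above background on a fraction of 0.4 or more of the arrays were kept, and the probe with the highest mean signal stood for a gene, which left 20405 genes. A single limma model (version 3.58.1, R 4.3.3, functions lmFit and eBayes) held all 12 arrays. Calls needed a fold over 1.2 or under 0.8 and an adjusted p under 0.1, by Benjamini-Hochberg over all tested genes. The study's SAM was not run, and limma stands in its place. Single values were compared with an exact two-sided permutation test. The fit was tested on simulated data, and figures were drawn with matplotlib.

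The members, the pathway and marker lists and the comparisons were chosen with earlier results of these data known. The genes named are all members, and from each pathway list any called gene and the 2 with the largest change in each treated group against 6-OHDA, plus the 3 genes most correlated with each tested member. The alternatives were scaling to the 75th percentile, normexp background correction (offset 50), the authors' log2 values, dim probes kept, a filter that needs 3 flagged arrays in some group, probes averaged or tested singly, outlier spots kept, a replicate block, fits restricted to the compared arrays, an adjusted p limit of 0.05, calls without a fold limit, and each array left out. With 1 array per rat, p-values measure the spread between rats together with that of dissection and array, which cannot be told apart. The value of 1 gene that this rule would name is not reported here.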

Additional observations from a re-analysis of the deposited data

Results flagged for a closer look

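The spot of the Chrm1 probe A_43_P15593 on DOPA/HFS replicate 3 was left out of every comparison because the scanner software marked it as an outlier. Its intensity was 3433, above the 155.1 to 471.4 of the same probe on the 3 arrays of 6-OHDA. The second Chrm1 probe on that array had a log2 signal of 5.11, within the range of its group of 4.11 to 5.22.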

How the results depend on the processing

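No member was called under any alternative, in any of the 6 comparisons. Of 387 recomputed differences of single members, 29 changed sign. For Chrm3, none did in DOPA/HFS against 6-OHDA, DOPA/HFS against DOPA or HFS against 6-OHDA, under any of 21 alternatives each. Many of these could not move the value, as Chrm3 has 1 probe, well above background on all arrays. These were the filters, probe averaging, the block, the compared arrays alone and arrays of other groups left out. In both DOPA/HFS comparisons the groups did not overlap, so leaving out 1 array could not change the sign. With the deposited log2 table, in which the median of all genes was -0.12 in DOPA/HFS against 6-OHDA, Chrm3 was at -0.89. With outlier spots kept, Chrm1 became 0.83 in DOPA/HFS against 6-OHDA, 1.03 against DOPA and 1.01 against HFS, through the restored spot. Chrm4 by its other probe became 0.23 in HFS and 0.23 in DOPA against 6-OHDA, -0.12 and -0.11 in DOPA/HFS against DOPA and HFS, and -0.35 for the interaction. By the mean of both probes it became 0.06 in HFS, 0.09 in DOPA and -0.01 for the interaction. Why the probes differ was not tested.

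Leaving out single arrays changed signs as follows. Chrm1 ranged from -0.34 to 0.01 in HFS, from -1.21 to 0.55 in DOPA/HFS, from -1.01 to 0.75 in DOPA/HFS against DOPA, from -1.03 to 0.73 against HFS and from -0.82 to 0.93 for the interaction. The ends of the last 4 came without DOPA/HFS replicate 1 and without replicate 2. Chrm3 ranged from -0.24 to 0.12 in DOPA (the latter without DOPA replicate 1), from -0.50 to 0.14 in DOPA/HFS against HFS and from -0.40 to 0.24 for the interaction (both without HFS replicate 1 and replicate 2). Chrm4 ranged from -0.16 to 0.02 in HFS and from -0.20 to 0.09 in DOPA. With the replicate number as a block, 0 members were called and no sign changed, with Chrm3 in DOPA/HFS against 6-OHDA at -0.77. Chrm3 and Chrm4 had a value on every array, so the block could not move their differences. Deviations from the group means of arrays with the same number correlated between -0.288 and 0.477 over genes, so the numbers were not taken to pair the arrays.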
